A study of Mus musculus with 8 samples.

Results

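Goblet cell genes were followed through 8 RNA-seq libraries of the mouse small intestine, in which EDTA had been used to detach the epithelium and RNA was taken from what remained. The rows were those whose gene name is Muc2, Tff3, Agr2, Clca1, Fcgbp, Zg16 or Spink4, and all 7 were found once among the 46635 loci of the deposited table. The mice carried no mutation (wild type). Of the libraries, 4 are fetal, at E17.5, which the age label writes as E17, and 4 are from pups at postnatal day 14 (P14). The labels call the tissue small intestinal mesenchyme and do not say whether a library is a single animal or a pool, so the spread between libraries may be technical. The values are FPKM, reads scaled by gene length and by library size, a scale on which genes of different length can be set side by side.

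Goblet cells are secretory cells of the intestinal epithelium that fill granules with the mucin MUC2 and release them as a hydrated gel over the mucosa. The gel carries partner proteins: FCGBP is a large mucus protein with von Willebrand domains, CLCA1 a secreted metalloprotease that trims MUC2, and ZG16 a lectin that binds bacteria. TFF3 is a trefoil peptide of the mucus that aids epithelial repair, SPINK4 a Kazal-type protease inhibitor, and AGR2 a disulphide isomerase of the endoplasmic reticulum on which MUC2 assembly depends. They are epithelial genes in a tissue taken after the epithelium was to be removed. In bulk tissue, fewer goblet cells and less RNA per goblet cell cannot be told apart.

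Assigned reads per library ran from 16660998 to 19496632. Epcam, an adhesion protein of all gut epithelium, served as the measure of residual epithelium. Before birth its FPKM was 0.683, 1.73, 0.844 and 1.32 by replicate. After birth, P14 replicates 1 to 4 measured 1228, 8.46, 118 and 33.5. The P14 libraries therefore ran, from most to least Epcam, as replicates 1, 3, 4 and 2, over a 145-fold range, and every one lay above every E17.5 library. Genes of the gut wall ran the other way. The summed FPKM of 8 smooth muscle genes was 2716 for P14 replicate 1, against 10557, 7492 and 9428 for replicates 2, 3 and 4. Age and the amount of epithelium left cannot be told apart for the genes below.

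Of the 7 genes, 6 were high in P14 replicate 1 and did not exceed 0.691 FPKM at E17.5. Of these, Muc2 had 14 to 27 reads per fetal library and Fcgbp 6 to 33. Zg16 was near the limit of detection throughout. Muc2 (gene 17831, chromosome 7, 141276583 to 141308428, plus strand, GRCm39) had fetal FPKM values of 0.0637, 0.0869, 0.0531 and 0.0974, from 17, 21, 14 and 27 reads. P14 replicates 1 to 4 had 22.1, 0.193, 1.13 and 0.199, from 4306, 49, 295 and 53 reads. The ages did not overlap, yet P14 replicates 2 and 4 stood only slightly above the fetal libraries. The P14 mean was 5.90 ± 10.8 FPKM (SD, n = 4) against 0.0753 ± 0.0204 at E17.5, and 0.508 ± 0.54 over the 3 P14 libraries without replicate 1.

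Fcgbp (gene 215384, chromosome 7, 27770661 to 27820289, plus strand) had the most reads of the 7, 13899 in P14 replicate 1. Its fetal FPKM was 0.0394, 0.196, 0.18 and 0.209, while P14 replicates 1 to 4 had 125, 0.539, 8.32 and 1.32. Again the ages did not overlap, and P14 replicates 1 and 2 differed 232-fold, more than they did in Epcam. Clca1 (gene 23844, chromosome 3, 144710298 to 144738537, minus strand) had fetal FPKM values of 0, 0.0843, 0.0464 and 0.191. The 0 in replicate 1 still allows 3 reads, or 0.0458 FPKM, by counting error alone. The P14 libraries, in replicate order, had 27.5, 0.193, 0.907 and 0.184 FPKM. P14 replicate 4, with 12 reads, lay below E17.5 replicate 4, with 13, so the ages overlapped in this gene.

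Zg16 (gene 69036, chromosome 7, 126649328 to 126651847, minus strand) stood apart from its partners in mucus. Its fetal FPKM of 0.153, 0.253, 0.387 and 0.147 came from 2, 3, 5 and 2 reads. The P14 values of 0.209, 0.161, 0.0782 and 0, by replicate, came from 2, 2, 1 and 0 reads. In P14 replicate 1, where Fcgbp reached 125 FPKM and Clca1 27.5 FPKM, Zg16 had 2 reads. The pooled reads, 5 at P14 against 12 at E17.5, give a P14 to E17.5 ratio of 0.448 with an exact 95% interval of 0.124 to 1.37, which covers counting error only. No difference between the ages was detectable at this depth.

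Both secreted peptides were plentiful in the P14 library richest in epithelium. Tff3 (gene 21786, chromosome 17, 31344280 to 31348585, minus strand) had the highest level per length of the 7 genes there. The fetal libraries had 0.341, 0.629, 0.691 and 0.548 FPKM, from 3, 5, 6 and 5 reads. P14 replicates 1 to 4 had 330.2, 4.31, 28.7 and 4.68 FPKM. Every P14 library lay above every E17.5 library, with replicates 2 and 4 close together and replicate 3 between them and replicate 1. Spink4 (gene 20731, chromosome 4, 40920056 to 40931395, plus strand) had 0.133, 0.44, 0.671 and 0 FPKM before birth. P14 replicates 1 to 4 had 48.8, 0.558, 17.52 and 4.79 FPKM. P14 replicate 2, with 4 reads, fell within the fetal range, so the ages overlapped. The 0 in E17.5 replicate 4 allows up to 0.383 FPKM.

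Agr2 (gene 23795, chromosome 12, 36042924 to 36054080, plus strand) varied least among the P14 libraries of the 6 genes with more than a few reads. Fetal FPKM was 0.206, 0.152, 0.208 and 0.264, from 3, 2, 3 and 4 reads, and P14 replicates 1 to 4 had 46.5, 3.90, 8.004 and 4.06. The P14 range was 11.9-fold, against 76.6-fold for Tff3, 87.4-fold for Spink4, 114-fold for Muc2 and 150-fold for Clca1. The lowest P14 library still held 54 reads, and no P14 library came near the fetal ones.

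**Figure D1:**
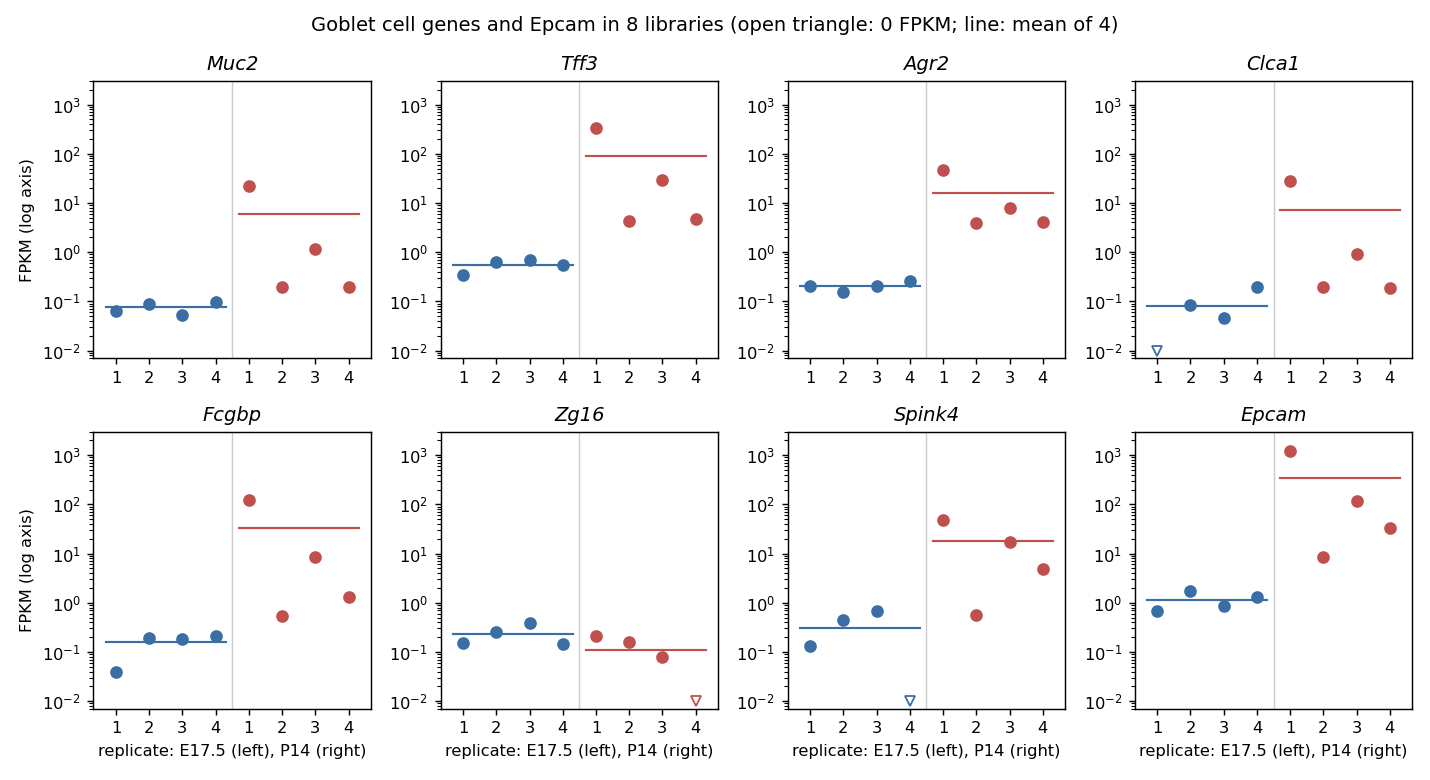
FPKM on a log axis of the 7 goblet cell genes and Epcam in E17.5 replicates 1 to 4 (blue) and P14 replicates 1 to 4 (red); lines are means of 4 libraries and open triangles mark 0 FPKM. P14 replicate 1 is the highest P14 library in every panel, while Zg16 stays under 0.4 FPKM in all 8 libraries.

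Promoter sequences of RefSeq on GRCm38.p6 matched 3 of the 7 genes, and these 3 also had P14 libraries in the order of Epcam. The 250 bases before the start of each are shown with those of Epcam, 5′ to 3′ on the gene's strand. Tff3 and Spink4 also held that order but had no matched sequence. Whether these sequences bear on the order was not tested. Capitals mark GATAA, the core bound by GATA factors, and ATAAA, the core bound by CDX factors, on either strand; the 2 can share bases.
Muc2, chr7:141690090-141690339: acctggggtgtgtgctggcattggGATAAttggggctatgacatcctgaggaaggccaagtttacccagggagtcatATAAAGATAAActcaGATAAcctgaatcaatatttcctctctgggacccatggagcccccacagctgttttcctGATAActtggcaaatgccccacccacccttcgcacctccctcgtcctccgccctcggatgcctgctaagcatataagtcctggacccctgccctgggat
Agr2, chr12:35992675-35992924: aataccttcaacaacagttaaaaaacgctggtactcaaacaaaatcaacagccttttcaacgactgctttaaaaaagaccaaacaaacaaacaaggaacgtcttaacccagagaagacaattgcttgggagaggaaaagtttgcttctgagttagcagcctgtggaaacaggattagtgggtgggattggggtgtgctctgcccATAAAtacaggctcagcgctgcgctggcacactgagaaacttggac
Fcgbp, chr7:28070986-28071235: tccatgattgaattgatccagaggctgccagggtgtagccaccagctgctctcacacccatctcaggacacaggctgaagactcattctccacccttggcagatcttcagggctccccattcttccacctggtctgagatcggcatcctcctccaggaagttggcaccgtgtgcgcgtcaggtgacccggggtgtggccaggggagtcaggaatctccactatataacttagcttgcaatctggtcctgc
Epcam, chr17:87635729-87635978: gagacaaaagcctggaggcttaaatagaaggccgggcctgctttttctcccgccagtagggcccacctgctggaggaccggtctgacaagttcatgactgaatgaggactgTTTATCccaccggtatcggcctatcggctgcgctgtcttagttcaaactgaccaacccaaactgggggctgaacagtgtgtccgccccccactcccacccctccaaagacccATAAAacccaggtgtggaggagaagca

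The Muc2 window held 4 matches to GATAA, the Epcam window 1, and those of Agr2 and Fcgbp none of these letters. ATAAA occurred 2 times in Muc2, 2 times in Epcam and 1 time in Agr2. GGAT, the core bound by the goblet cell factor SPDEF, occurred 4 times in Muc2, 2 times each in Agr2 and Fcgbp and 1 time in Epcam. TATAA, the core of the TATA box, lay 28 bases before the start in both Muc2 and Fcgbp, with a further match in Muc2, and can share bases with ATAAA. Over all 32851 promoter windows of that length, both strands read, 22.6% held GATAA, 37.3% ATAAA, 74.1% GGAT and 22.8% TATAA. These are matches of letters and show no binding.

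Tff3 and Agr2 were called higher at P14 than at E17.5, a direction that the filter fixed in advance. They were the only members to reach the test, which required 4 libraries at 1 FPKM or above and took 14044 genes; the other 5 did not reach it. A gene at this low fetal level passes that filter only through P14, so the count of 2 called out of 2 is not evidence about goblet genes as a group; of all tested genes, 9.72% were called higher and 15% lower at P14, 1365 and 2108 genes, or 899 and 2678 after rescaling to TPM. On the log2(FPKM + 1) scale, which understates the change of low genes, Agr2 rose by 3.07 (SE 0.67, limma with Benjamini-Hochberg adjustment, adjusted p = 0.015). Tff3 rose by 3.92 (SE 1.21, limma adjusted p = 0.0488).

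The Agr2 call held in each of the 17 other settings tried, and without P14 replicate 1 it was 2.33 (SE 0.207, limma adjusted p = 7.58e-05). Only the setting with no filter left a lower call open for Agr2 or Tff3, so the other settings do not bear on the direction. The Tff3 call was lost without any single E17.5 library or P14 replicate 3 (limma adjusted p 0.103 to 0.11). Without P14 replicate 1, Tff3 rose by 2.64 (SE 0.605, limma adjusted p = 0.0118), where 22.6% of all tested genes were called higher and 26.9% lower. With no filter, all 7 genes entered, and 3.19% of 31574 genes were called higher and 4.98% lower; Agr2 was then the only member called (limma adjusted p = 0.0349), beside 0.0989 for Tff3, 0.115 for Spink4 and 0.227 for Fcgbp. In that fit Muc2 and Clca1 had log2 differences of 1.43 (SE 0.895, limma adjusted p = 0.376) and 1.46 (SE 0.97, limma adjusted p = 0.404), and Zg16 one of -0.15 (SE 0.0902, limma adjusted p = 0.354). Agr2 was likewise the only member called with a filter on mean FPKM, where 9.23% of genes were called higher and 13.9% lower, and with the replicate block, where 4.95% were called higher and 7.47% lower.

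Within P14, goblet cell genes mostly followed the order of Epcam. Muc2, Fcgbp, Tff3, Spink4 and Agr2 ran as replicates 1, 3, 4 and 2, Clca1 had replicates 4 and 2 exchanged, and Zg16 ran as 1, 2, 3 and 4. Replicates 4 and 2 had near-equal reads of Muc2 (53 and 49), Agr2 (59 and 54), Tff3 (41 and 36) and Clca1 (12 each). They differed more in Fcgbp (201 and 78), Spink4 (36 and 4) and Epcam (1323 and 318). For the near-equal genes, and for Zg16 with 2 reads or fewer per P14 library, counting error alone could change the order. The order of Epcam was held by 5 of the 7 genes and by 9.5% of the 31574 genes above 0 in at least 1 library. It was also held by all 24 pan-epithelial markers, Epcam among them, and by 18 of 20 enterocyte markers, so it is no mark of goblet cell genes. With 4 libraries it is a description, and correlations within an age were not computed. All 4 P14 libraries lay above all 4 E17.5 libraries in Muc2, Fcgbp, Tff3 and Agr2, 4 of the 7 genes, and in 10.6% of the 31574 genes. The same separation was seen in 19 of 24 pan-epithelial and 14 of 20 enterocyte markers.

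The size of the steps between P14 libraries differed from gene to gene. In P14 replicate 3, Epcam was at 9.62% of its level in replicate 1. Clca1 was at 3.30%, Muc2 at 5.13%, Fcgbp at 6.66% and Tff3 at 8.68%, all below Epcam, whereas Agr2 was at 17.2% and Spink4 at 35.9%. In P14 replicate 4, Epcam was at 2.73%. Clca1, Muc2, Fcgbp and Tff3 lay between 0.668% and 1.42%, again below Epcam, and Agr2 at 8.72% and Spink4 at 9.81% above it. In P14 replicate 2, with Epcam at 0.689%, Agr2 was at 8.37% and the other 5 genes between 0.432% and 1.31%. The median of all tested genes with 1 FPKM or more in replicate 1 was 91.6% to 94.3% in the other P14 libraries.

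Spink4 was not alone in a high share in replicate 3; the genes below were picked for comparison after their values were seen. The 9 Paneth cell markers, from antimicrobial cells of the crypt base, had summed FPKM of 95.2, 1.27, 90.1 and 9.08 over P14 replicates 1 to 4, and 7 of the 9 were listed at 0 in all E17.5 libraries. Defensin genes have near-identical copies, so their values, and the summed FPKM that include them, are uncertain. The defensin Defa24 was at 39.8 FPKM in replicate 1 and at 35.1 FPKM in replicate 3. Lyz1, which encodes lysozyme, had 6.31 and 9.24 FPKM there. Olfm4, a marker of crypt stem cells, was at 85.5 and 76.6 FPKM. Not all such genes were high there: Reg3g, an antimicrobial lectin on the same Paneth list, was at 6.95% of replicate 1. Among other genes listed here as goblet cell products, Itln1 was at 76.2%, Reg4 at 37.1%, Lypd8 at 17.7%, Tpsg1 at 14.5%, Hepacam2 at 11.6% and Guca2a at 4.73%. Over the 20 enterocyte markers, the 16 with 1 FPKM or more in replicate 1 had a median of 14.7%. The part of these cell types in the Spink4 values was not tested.

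**Figure D2:**
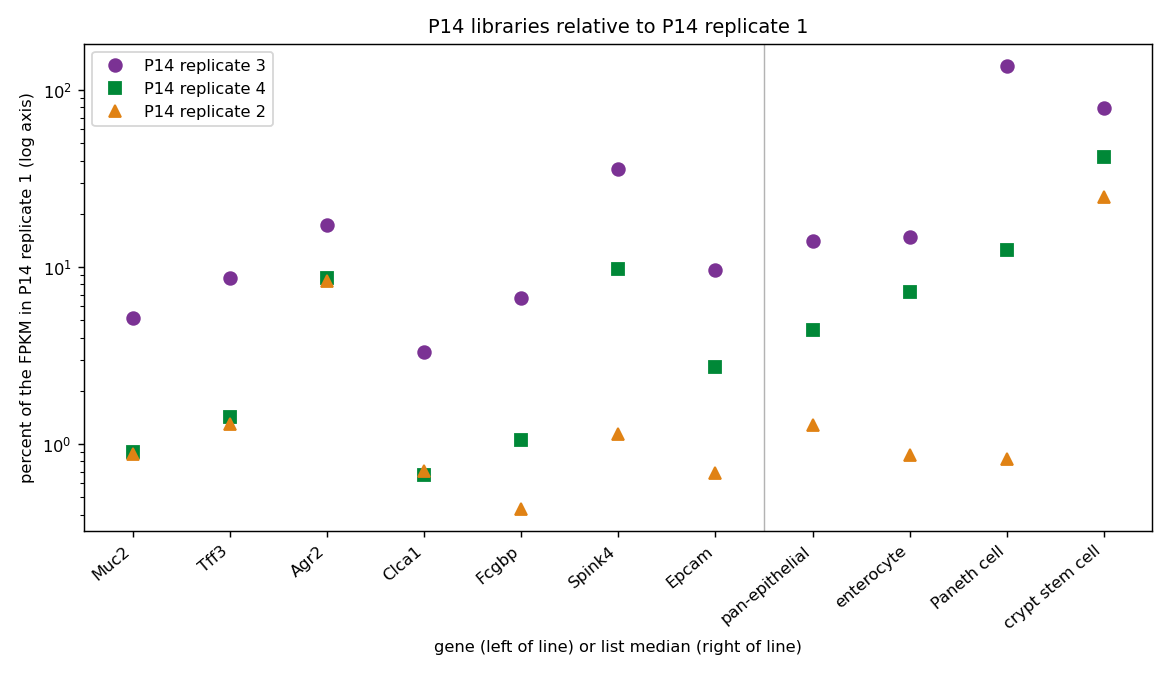
FPKM of P14 replicates 3, 4 and 2 as a percent of that in P14 replicate 1, on a log axis, for 6 goblet cell genes and Epcam, and as medians of 4 marker lists over genes with 1 FPKM or more in replicate 1. Replicate 3 lies at 3.30% for Clca1, 9.62% for Epcam and 35.9% for Spink4. The Paneth cell median lies above 100%, over 6 genes that span 6.95% to 535%, most of them defensins with near-identical copies. The crypt stem cell list also holds genes that the gut wall expresses.

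As a percent of Epcam FPKM, each of the 7 genes had a lower mean at P14 than before birth. Muc2 had 9.33%, 5.02%, 6.28% and 7.41% in the fetal libraries, against 1.80%, 2.28%, 0.957% and 0.593% over P14 replicates 1 to 4. The ages did not overlap, with a mean of 7.01% ± 1.83 (SD, n = 4) at E17.5 and 1.41% ± 0.771 at P14. That separation is no mark of Muc2, since 97.3% of the 14043 other tested genes were lower relative to Epcam at P14 without overlap, Epcam itself being far higher. Zg16 also did not overlap, with 11.2% to 45.8% before birth and 0% to 1.90% after, on 5 reads or fewer per library. The fetal ratios rest on 27, 62, 33 and 54 reads of Epcam.

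Fcgbp spanned 5.78% to 21.3% of Epcam before birth and 3.95% to 10.2% after, and the ages overlapped. With 0.1 added to both FPKM values, as in the share over all tested genes, they did not overlap and P14 was lower. Tff3 had fetal shares of 50%, 36.3%, 81.8% and 41.7%, and P14 replicates 1 to 4 had 26.9%, 50.9%, 24.2% and 13.9%. Its mean log2 ratio to Epcam differed by -1.04 (exact two-sided permutation p = 0.0857, 0.0866 adjusted over all genes tested; smallest possible p 0.0286). Agr2 had fetal shares of 30.1%, 8.75%, 24.7% and 20.1% and P14 shares of 3.79%, 46.1%, 6.77% and 12.1%. The difference in its log2 ratio was -1.23 (exact permutation p = 0.229, adjusted p = 0.23), and P14 replicate 2, the library with least Epcam, had the highest ratio of all 8. Neither difference passed, and both turned positive, 1.06 for Tff3 and 0.87 for Agr2, when the mean of 15 other epithelial markers replaced Epcam (adjusted exact permutation p = 0.0892 each). The direction therefore depends on the marker. Some of the 15 stood far above Epcam before birth, such as Krt19 at 1463% to 3984% of Epcam, against 13.3% in P14 replicate 1. Others did not, such as Cldn7 at 47.3% to 60.4% before birth and 37.8% in P14 replicate 1. Whether the fetal signal of such markers came from epithelium was not tested.

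Clca1 spanned 0% to 14.5% of Epcam before birth and 0.548% to 2.28% after. These shares overlapped, but not with 0.1 added to both FPKM values, an amount that is large beside its fetal FPKM. Spink4 spanned 0% to 79.5% and then 3.97% to 14.8%. The fetal values of both rest on 13 reads or fewer in each library. Of 12 tested enterocyte genes, 6 were called lower relative to Epcam at P14 and 3 higher. The shares over all tested genes other than Epcam were 97.3% lower and 0.0926% higher. Of 15 tested pan-epithelial markers other than Epcam, 10 were called lower and none higher (exact permutation, adjusted p under 0.05). In both lists, lower calls were thus less frequent than the 97.3% of all tested genes.

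**Figure D3:**
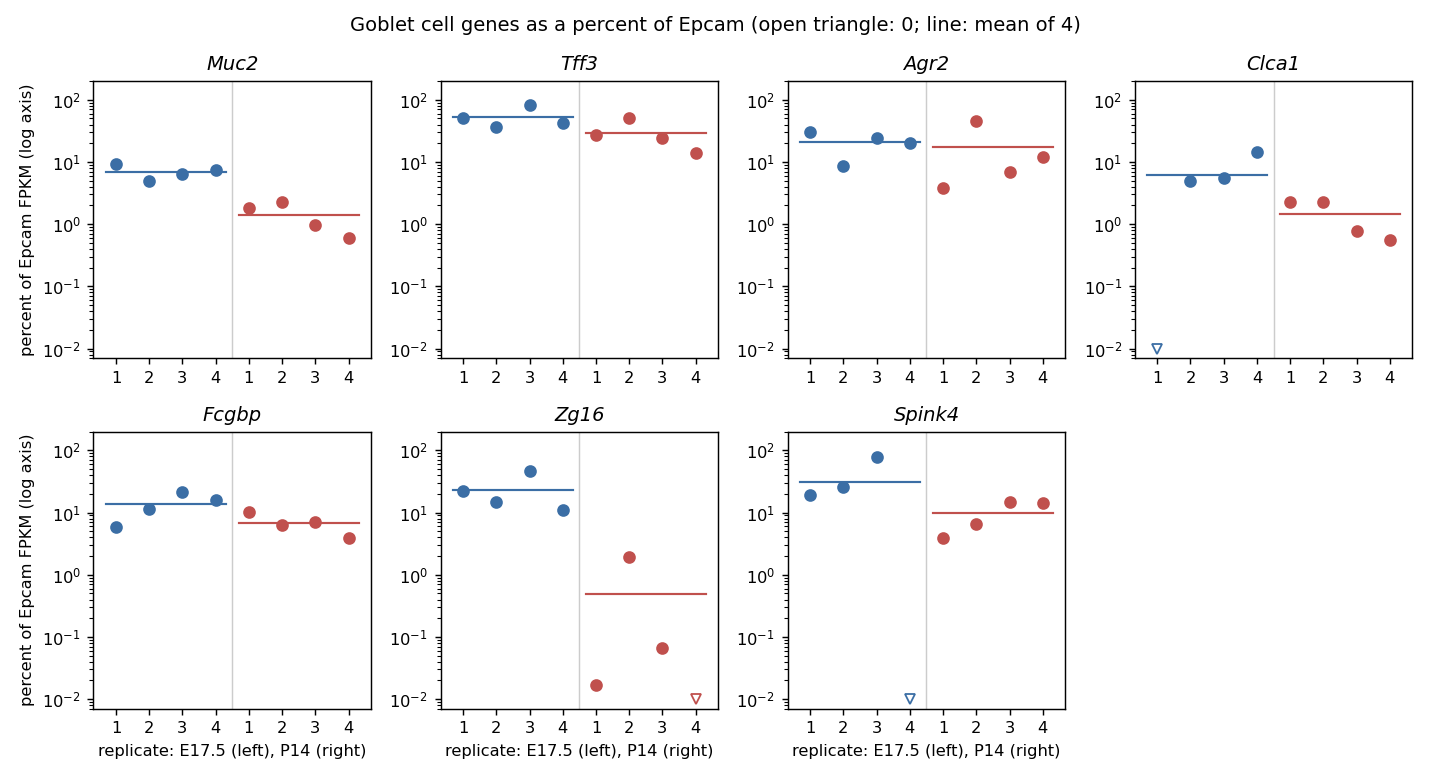
FPKM of each goblet cell gene as a percent of Epcam FPKM in the same library, on a log axis, for E17.5 (blue) and P14 (red) replicates 1 to 4; lines are means of 4 and open triangles mark 0. Muc2 spans 5.02% to 9.33% before birth and 0.593% to 2.28% after, while Agr2 spans 3.79% to 46.1% at P14.

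Of 10 listed transcription factors of goblet and other secretory cells, 3 were tested, 2 were called lower and none higher, beside 15% lower and 9.72% higher among all tested genes. Klf4, the other one tested, was not called (limma adjusted p = 0.363). Xbp1, a factor of the unfolded protein response that many secretory cells use, went from 75.6 ± 3.33 to 52.3 ± 11 FPKM (log2 fold change -0.54, limma adjusted p = 0.0307). Creb3l1, a membrane-bound factor of secretory and matrix-producing cells, was at 23.1 ± 2.44 and 12.4 ± 3.39 FPKM (-0.88, limma adjusted p = 0.019). The Xbp1 call was lost without any single library other than P14 replicate 1 (limma adjusted p 0.0636 to 0.0855) and with no filter (0.0633), and that of Creb3l1 without E17.5 replicate 1, 2 or 3 (0.0531 to 0.0584). Both are also used outside goblet cells.

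The 7 untested factors, named here after their values were seen, differed in their fetal levels. Creb3l4, a relative of Creb3l1, had 0.62 to 0.99 FPKM before birth and 0.451 to 1.53 FPKM after, and Gfi1, a secretory lineage factor, had 0.185 to 0.373 and 0.053 to 0.706 FPKM; both overlapped between the ages. Foxa2 and Foxa3, forkhead factors, did not exceed 0.134 and 0.0282 FPKM before birth. Spdef, which drives goblet cell maturation, had fetal FPKM of 0.0151, 0.1, 0.0613 and 0.0292, and P14 replicates 1 to 4 had 1.74, 0.223, 0.884 and 0.319, without overlap. Atoh1, which commits cells to the secretory lineage, was listed at 0 in all E17.5 libraries and in P14 replicate 2, and had 2.12, 0.478 and 0.148 FPKM over P14 replicates 1, 3 and 4. Foxa1, a forkhead factor of secretory cells, was also at 0 in every E17.5 library and reached 6.28 FPKM in P14 replicate 1. Of the 10 factors, 6 held the P14 order of Epcam, beside 9.5% of the 31574 genes above 0 and all 24 pan-epithelial markers. In P14 replicate 2, the lowest in that order, Klf4 had 455 reads and Spdef 14. Foxa1, Foxa3, Atoh1 and Foxa2 had 5, 2, 0 and 0 reads there.

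Among the other mucins, Muc13 was high in the P14 libraries with most Epcam, and the gel-forming mucins of other organs were near 0. Muc13, a membrane mucin, had fetal FPKM of 0.281, 0.0581, 0.213 and 0.355, and P14 replicates 1 to 4 had 715, 3.32, 57.4 and 18.6. It rose by 5.15 (SE 1.34, limma adjusted p = 0.0279), but as with Tff3 and Agr2 it passed the filter only through P14, which left no other direction open. The call was lost without any single E17.5 library or P14 replicate 3 (limma adjusted p 0.0643 to 0.0746), with no filter (0.0605) and with voom on recovered reads (0.113). It was the only one of 11 matched mucins to be tested. Muc3, a further membrane mucin named after its values were seen, had 46.0, 0.156, 1.90 and 0.475 FPKM over P14 replicates 1 to 4 and was listed at 0 in 3 of the 4 E17.5 libraries. Muc1 and Muc16, also membrane mucins, overlapped between the ages. Muc5ac and Muc6, the gel-forming mucins of the stomach, and Muc5b, that of the airways, did not exceed 0.0223 FPKM in any library.

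Of 16 other genes listed here as goblet cell products, 6 were tested. Of these, 2 were called higher and none lower, and 4 were called higher without P14 replicate 1. The shares over all tested genes were 9.72% higher, and 22.6% without that library. Guca2a and Lypd8, the 2 called, reached 1 FPKM in 4 libraries only through P14, so that the filter fixed their direction. Whether their RNA came from goblet cells or from other epithelial cells was not tested. Guca2a, the gene of guanylin, which regulates fluid secretion, had fetal FPKM of 0, 1.03, 0 and 0.807 and P14 values of 2782, 33.9, 132 and 46.6 by replicate (log2 fold change 6.83, SE 1.27, limma adjusted p = 0.00816). Lypd8, a secreted protein that keeps flagellated bacteria off the colonic surface, went from 0.768 ± 0.328 to 237 ± 347 FPKM (5.63, SE 1.12, limma adjusted p = 0.0106). Both calls were lost with voom on recovered reads (limma adjusted p = 0.109 and 0.0701). Tff1 and Retnlb, the latter a goblet cell product of the inflamed or colonised gut, were listed at 0 in all 8 libraries. Vsig2, Ccn3, Kcnma1 and Wfdc2 were tested and not called; Ccn3 and Kcnma1 were highest in P14 libraries low in Epcam.

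Of 11 tested transferases that build and cap mucin O-glycans, 1 was called higher and none lower, beside 9.72% and 15% of all tested genes. The median log2 fold change was 0.15, beside 0.00 over all tested genes. Without P14 replicate 1, 2 were called higher and 2 lower, beside 22.6% and 26.9%, and the median was -0.12. That 1 was Chst4, a sulphotransferase also known from high endothelial venules, with fetal FPKM of 1.1, 0.8, 0.455 and 1.01 and P14 values of 1.26, 4.89, 6.55 and 5.16 by replicate (1.45, SE 0.36, limma adjusted p = 0.0233). It was lowest in the P14 library richest in Epcam. E17.5 replicates 2 and 3 lay under 1 FPKM, so Chst4 too passed the filter only through P14, which favoured a higher call. Its call was lost without any single library other than E17.5 replicate 1 and P14 replicate 1 (limma adjusted p 0.0516 to 0.0735), with no filter (0.0516) and with voom (0.0662). St6galnac6, a sialyltransferase with the highest mean of the list over the 8 libraries, had 14.2 ± 1.53 and 21.6 ± 8.5 FPKM (limma adjusted p = 0.324, and 0.000224 without P14 replicate 1). Galnt3, an initiating transferase named after its values were seen, was at 54.1 FPKM in P14 replicate 1 and at 0.379, 3.29 and 0.653 FPKM in replicates 2, 3 and 4.

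AGR2 works among the folding proteins of the endoplasmic reticulum. Of 13 tested, 3 were called lower and none higher, beside 15% and 9.72% of all tested genes, with a median log2 fold change of -0.49. Without P14 replicate 1, 9 were called lower, beside 26.9%. Pdia5, a disulphide isomerase, went from 20.95 ± 2.29 to 9.44 ± 1.04 FPKM (-1.07, SE 0.12, limma adjusted p = 0.00123). Pdia6 and Pdia4, of the same family, fell by 0.78 (SE 0.153) and 0.75 (SE 0.216). The Pdia4 call was lost without any single library other than P14 replicate 1 (limma adjusted p 0.0701 to 0.105) and with no filter (0.08). P4hb, which had the highest mean over the 8 libraries only through 775 FPKM in P14 replicate 1, had 229 ± 21.3 and 333 ± 295 FPKM (0.21, and -0.31 without P14 replicate 1, neither called). Most of these genes serve all secreting cells, collagen-producing fibroblasts among them. The epithelium-specific stress sensor Ern2, named after its values were seen, was at 0.938 FPKM in P14 replicate 1 and under 0.2 FPKM in the other 7 libraries.

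Of 13 tested genes of granule traffic and release, 3 were called higher and 1 lower, beside 9.72% and 15% of all tested genes. Without P14 replicate 1 they were 6 and 2, beside 22.6% and 26.9%. Rab3d, a GTPase of secretory granules, had fetal FPKM of 6.41, 7.26, 5.02 and 5.45 and P14 values of 11.2, 12.5, 11.9 and 10.99 by replicate (0.86, SE 0.122, limma adjusted p = 0.00303). Its P14 values were close together across the 145-fold range of Epcam. Rab27b, a related GTPase, rose by 0.94 (SE 0.229, limma adjusted p = 0.0219), not without E17.5 replicate 2, 3 or 4 (0.0566 to 0.0639). Sytl4, a synaptotagmin-like effector of such GTPases, fell by 0.78 (SE 0.104). Vamp8, a SNARE protein of secretory granules with the highest mean of the list, had 38.4 ± 1.15 and 86.2 ± 57.7 FPKM (0.96, limma adjusted p = 0.0804, and 0.57, adjusted p = 0.000493, without P14 replicate 1).

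Among 8 genes of ion transport and MUC2 cleavage, 4 were tested and 2 called higher, beside 9.72% of all tested genes. Mep1a, a subunit of the protease meprin that acts on MUC2, made by enterocytes,, went from 0.0437 ± 0.0411 to 185 ± 342 FPKM (4.80, SE 1.43, limma adjusted p = 0.043). That call was lost without any single library other than P14 replicates 1 and 2 (limma adjusted p 0.0539 to 0.103), with no filter (0.0884) and with voom (0.171), and Mep1a too passed the filter only through P14. Slc4a4, a bicarbonate transporter, rose by 1.12 (SE 0.138, limma adjusted p = 0.0018).

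**Figure D4:**
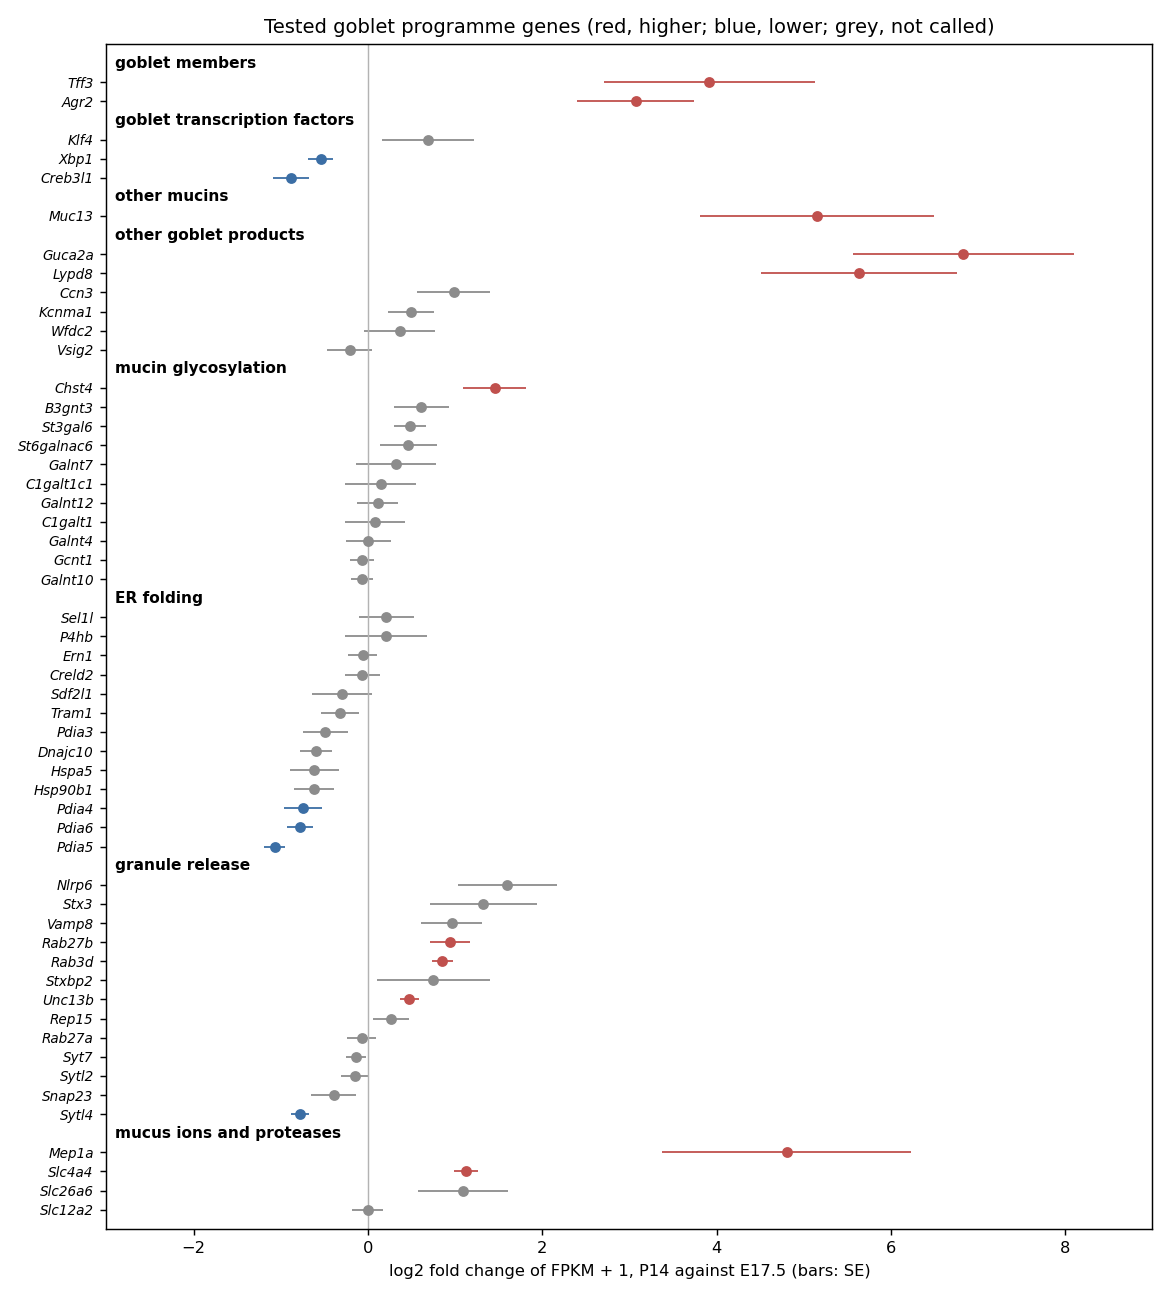
Log2 fold changes of FPKM + 1, P14 against E17.5, with SE, for the tested genes of the goblet cell gene set and of 7 further lists; red marks genes called higher, blue lower and grey not called by limma. Increases above 3 are seen in Tff3, Agr2, Muc13, Guca2a, Lypd8 and Mep1a, while no tested folding protein was called higher.

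The genes whose pattern was most like that of Tff3 and Agr2 over the 8 libraries were Clec2h, Arrdc1, Myh14, Sidt2, Tm4sf20, Pdzk1ip1, Espn and Myo15b. Their Pearson correlation with the mean of the standardised log2 values of Tff3 and Agr2 was 0.996 to 0.998, among 12691 protein-coding genes, and that of Epcam was 0.986, rank 104. Clec2h had 510, 4.87, 26.1 and 7.72 FPKM over P14 replicates 1 to 4 and did not exceed 0.209 FPKM in any E17.5 library. These figures describe 8 libraries that fall into separate ages, with P14 replicate 1 far from the rest, and carry no test.

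Of 7 tested enteroendocrine genes, which enteric neurons can also express, 3 were called higher and 1 lower, beside 9.72% and 15% of all tested genes. Among those called higher was Sst, with fetal FPKM of 0, 1.07, 0.163 and 0.259. It passed the filter only through P14, so its direction was fixed in advance. The P14 order of Epcam was held by 6 of the 14 listed, beside 9.5% of the 31574 genes above 0 in at least 1 library. The hormone genes Nts, Pyy and Sct, the last 2 named after their values were seen, held it: Nts had 119, 1.43, 7.70 and 2.98 FPKM over P14 replicates 1 to 4, Pyy 92.4, 0.489, 6.09 and 1.77, and Sct 66.3, 2.21, 6.997 and 3.11. Chgb, a granin of hormone granules, had 22.4, 18.97, 18.8 and 19.6 FPKM over P14 replicates 1 to 4, close to level, and Chga, a related granin, had 19.4, 13.4, 14.5 and 11.7. Of 6 listed genes of plasma cells, which also secrete heavily, 4 were tested. At P14, 3 of them were called higher, beside 9.72% of all tested genes. Any that lay under 1 FPKM before birth could enter the test only through P14. Igha was highest in P14 replicate 4 at 123 FPKM, not in replicate 1. Of the 13 markers of stomach and pancreas, the summed level was 3.38 to 6.21 FPKM at E17.5 and 4.51 to 6.35 FPKM at P14.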

How the data were processed

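The authors deposited FPKM per gene and library, with gene lengths and GRCm39 positions. The submitters' processing notes name CASAVA, fastp, HISAT2, featureCounts and DESeq2 1.20.0 but give no roles; whether counting used strand is not stated. Reads were recovered from FPKM and gene length, and 100% of products were whole (tolerance 1e-06). Relative to assigned reads, the authors' effective library size was 0.78 for P14 replicate 1 and 1.02 to 1.06 for the others, so FPKM of the former are higher for the same read share. Loci without a gene name took 0.183% to 0.246% of reads.

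Groups came from sample titles. P14 was compared with E17.5 on log2(FPKM + 1) with limma 3.58.1 under R 4.3.3 and statmod 1.5.0, using an intensity trend and robust moderation, two-sided, for 14044 genes reaching 1 FPKM in 4 libraries. P-values were adjusted by Benjamini-Hochberg over all of them and called under 0.05. Ratios to Epcam were log2 values with 0.1 added to both, compared by exact permutation over 70 splits. Both tests were run on simulated data. Nothing in the labels pairs replicate numbers: same-numbered deviations correlated at -0.0641 to 0.00947. Genes named were the 7 members and Epcam; per list, the most abundant tested gene and the called genes that changed most (3 at most); and the 8 most similar genes. Of 223 list symbols, 221 matched by name, 1 by synonym and 1 not. The members and lists were chosen with earlier results of these data known. Alternatives were other pseudocounts, filters, scalings, voom, no robust moderation, a replicate block, a different epithelial measure and leaving out each library.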

Additional observations from a re-analysis of the deposited data

Results flagged for a closer look

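In 7 of 30 groups of 4 libraries, a single library lay far from the other 3 (by Dixon's criterion on its gap to the nearest over the group's range). The criterion's rate of about 1 in 20 holds for independent groups. These groups share libraries, so their count cannot be set against that rate. P14 replicate 1 was the far library in FPKM for Epcam (1228), Tff3 (330.2), Fcgbp (125), Agr2 (46.5), Clca1 (27.5) and Muc2 (22.1). Spink4 and Zg16 showed no such gap in FPKM at P14. Relative to Epcam, P14 replicate 2 stood apart for Zg16, at 1.90% of Epcam, a value that rests on 2 reads.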

How the results depend on the processing

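Counts of all called genes moved by more than 1.5 times in some settings. Genes higher at P14 numbered 1365, against 899 after TPM rescaling, 894 with voom, 695 with the replicate block and 617 to 3176 when 1 library was left out. Genes lower numbered 2108, against 1049 with the replicate block and 1118 to 3782 with 1 library left out. TPM rescaling shifted the median of all tested genes by -0.18 (log2). Of the goblet genes, 2 were called higher, but 1 (Agr2) with no filter, with a filter on mean FPKM, with voom and with the replicate block, and 1 to 2 with 1 library left out. Tff3 was uncalled at 3.92 with no filter, with the mean filter and with the replicate block (limma adjusted p = 0.0989, 0.0533 and 0.0792) and at 5.05 with voom (0.122). It ran from 2.64 to 4.63 with 1 library left out. Agr2 kept its call in all 17 settings, at 2.33 to 3.42 with 1 library left out, though only the setting with no filter left its direction open. The replicate numbers did not pair the libraries; with the block, the calls of Muc13, Xbp1, Creb3l1, Chst4, Pdia4 and Mep1a were also lost (limma adjusted p 0.0514 to 0.0726).

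Relative to Epcam, 13 genes were called higher and 13659 lower; 21 were higher with 0.01 added, 68 with other epithelial markers, 0 with the replicate block and 0 to 12 with 1 library left out. Lower genes numbered 0 with the replicate block, whose smallest possible p is 0.125, and 0 to 13855 with 1 library left out, the 0 arising without any E17.5 library, where 835 to 1351 genes were lower and 12 to 17 higher at an unadjusted exact p under 0.05 (none with the block). The Tff3 ratio was -1.39 and called with 1 added (adjusted exact p = 0.0291), 1.06 with other epithelial markers, and -1.37 to -0.75 with 1 library left out, called without P14 replicate 2. The Agr2 ratio turned to 0.87 with other markers. Reads limit the fetal values: 12 for Agr2, 19 for Tff3 and 9 for Spink4 over 4 libraries.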
